A study of Homo sapiens with 43 samples.

Results

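The matrix metalloproteinases (MMPs), the ADAM and ADAMTS proteases and the tissue inhibitors of metalloproteinases (TIMPs) were followed in 2 human cancer cell lines and in derivatives of each. The genes were taken by symbol, as MMP, ADAM or ADAMTS followed by digits or TIMP1 to TIMP4, where the mean normalised read count reached 10 over the libraries of either medium of a line. Of 65 such symbols in the H2087 tables, 36 passed, among 12694 genes tested, and of 67 in the HCC1954 tables, 42 passed, among 15698 genes tested. Together 46 genes passed in at least 1 line, of 25379 genes in the tables of either line: 32 passed in both lines, 4 in H2087 only and 10 in HCC1954 only. By family, 11 MMPs, 11 ADAMs, 10 ADAMTS genes and 4 TIMPs passed in H2087, and 14 MMPs, 12 ADAMs, 13 ADAMTS genes and 3 TIMPs passed in HCC1954. Just inside the limit in H2087, MMP19 averaged 13.1 in MLM and 4.1 in MRM, while ADAM32, just outside it, averaged 8.16 in MLM and 7.71 in MRM. In HCC1954 the nearest pair was MMP20, inside at 8.48 in MLM and 13.95 in MRM, and ADAM28, outside at 9.14 in MLM and 7.27 in MRM.

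H2087 is an established lung cancer line and HCC1954 an established breast cancer line with amplified ERBB2. The LCC (latency competent cancer) groups are derivatives of each line, isolated from organs that were negative by BLI, bioluminescence imaging, and for HCC1954 the labels name the organs as those of a mouse. The parental groups are the lines from which the derivatives came. All cells were grown for 48 h, subconfluent, in a mitogen-low medium (MLM) or in a mitogen-rich medium (MRM), and total RNA was sequenced. In H2087 each medium had 6 LCC libraries (LCC1 to LCC6, each a separate derivative) and 2 parental libraries. In HCC1954 each medium had 4 LCC libraries, 2 from LCC1 and 2 from LCC2, and 3 parental libraries. Nothing in the labels says that libraries of a group came from separate cultures, so p-values measure the spread between these libraries, which in HCC1954 holds only 2 derivatives.

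MMPs are zinc endopeptidases that cut collagens, laminins, proteoglycans and many secreted proteins. Most are secreted as inactive precursors and some are anchored in the plasma membrane. ADAMs are membrane proteins with a disintegrin and a metalloprotease domain. Several are sheddases that release growth factors, cytokines and adhesion molecules from the cell surface, and several have lost the catalytic residues and act in adhesion or as receptors. ADAMTS proteins are secreted, carry thrombospondin repeats, and include enzymes that cut proteoglycans, process procollagen or cut von Willebrand factor. TIMPs bind and block these proteases, and in tumours the balance of proteases and inhibitors is known for its part in invasion and remodelling of the matrix.

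All values are normalised read counts, not divided by gene length, so levels are compared between libraries and not between genes. Library depth was 44.6 to 55.7 M reads (megareads) in MLM and 12.1 to 20.8 M in MRM for H2087, and 24.9 to 28.1 M in MLM and 28.8 to 44.7 M in MRM for HCC1954, so medium and depth moved together. A few libraries stood apart. HCC1954 LCC1 library 2 in MRM stood at a chi-square, divided by its degrees of freedom, of 116 from LCC1 library 1, against 2.12 to 3.55 for the other pairs of libraries of 1 derivative. HCC1954 parental 3 in MLM stood at 59.5 and 60.1 from the other parental libraries, which stood at 7.24 from each other. H2087 LCC6 in MRM was close to LCC5 in MRM, at 6.72, against 25.1 to 108 for the other pairs of LCC libraries in MRM. Fewer cells of a type and less RNA per cell cannot be told apart in such bulk libraries. ERBB2 had 119992 to 217790 normalised reads in HCC1954 LCC libraries and 183503 to 307479 in HCC1954 parental libraries. In H2087 the lung markers SFTPB and NAPSA were present and SFTPC stayed at 2.05 or less in LCC and at 1.08 or less in parental libraries. Kidney markers summed to at most 19.5 in any LCC library and 6.33 in any parental library.

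In HCC1954, derivative cells differed from parental cells in many of these genes. In MLM, 13 of 42 genes were higher and 8 lower in LCC than in parental libraries at a limma adjusted p under 0.05, which is 50% of them, against 35.5% of all genes tested. In MRM, 16 were higher and 7 lower, which is 54.8%, against 38.3% of all genes tested. The median log2 fold change of the 42 genes was 0.321 in MLM and 0.474 in MRM, against 0.00384 and -0.00163 over all genes. The 2 comparisons share no library, but both rest on the same 2 derivatives and the same parental line. Agreement between the media is therefore not independent. In both media 17 genes passed, 12 higher and 5 lower with the same sign, and they make up 81% of the MLM calls and 73.9% of the MRM calls. They are 40.5% of the 42 genes, against 25.2% of all genes tested that passed in both media. The higher ones were MMP2, MMP9, MMP16, MMP17, MMP20, MMP24, ADAM11, ADAM12, ADAM23, ADAMTS13, ADAMTS20 and TIMP1, and the lower ones MMP1, MMP7, ADAM10, ADAM15 and ADAMTS10. Of these, MMP16, MMP20 and ADAMTS20 reached the limit on the mean only through the LCC libraries, and MMP1 only through the parental ones. The direction of each of them was therefore tied to that limit and gives no independent support. With the mean of each derivative taken as 1 sample, 15 genes passed in MLM and 25 in MRM. Of all 15698 genes tested, 2589 and 5981 passed in that fit. Without parental 3, 24 passed in MLM (5194 of all genes), and without LCC1 library 2, 25 passed in MRM (7534 of all genes). Breast and ERBB2 identity markers differed too. Of ERBB2, GRB7, GATA3, KRT8, KRT18 and EPCAM, 4 were lower and 0 higher in LCC cells in each medium. Their summed level, much of it ERBB2, ran from 310000 to 422000 in LCC against 486000 to 591000 in parental libraries in MLM. In MRM it ran from 236000 to 366000 against 454000 to 492000. Of 8 fibroblast markers, 1, COL1A1, was tested and was higher in LCC cells in both media; their sum was 785 to 1120 in LCC against 529 to 641 in parental libraries in MLM, and 779 to 1110 against 466 to 575 in MRM, with DCN and LUM at or near 0. The part of these differences in the protease results was not tested. Blood markers summed to 527 to 1330 in LCC and 462 to 1440 in parental libraries over both media, and endothelial markers to 842 to 1430 in LCC and 708 to 1130 in parental libraries.

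**Figure D1:**
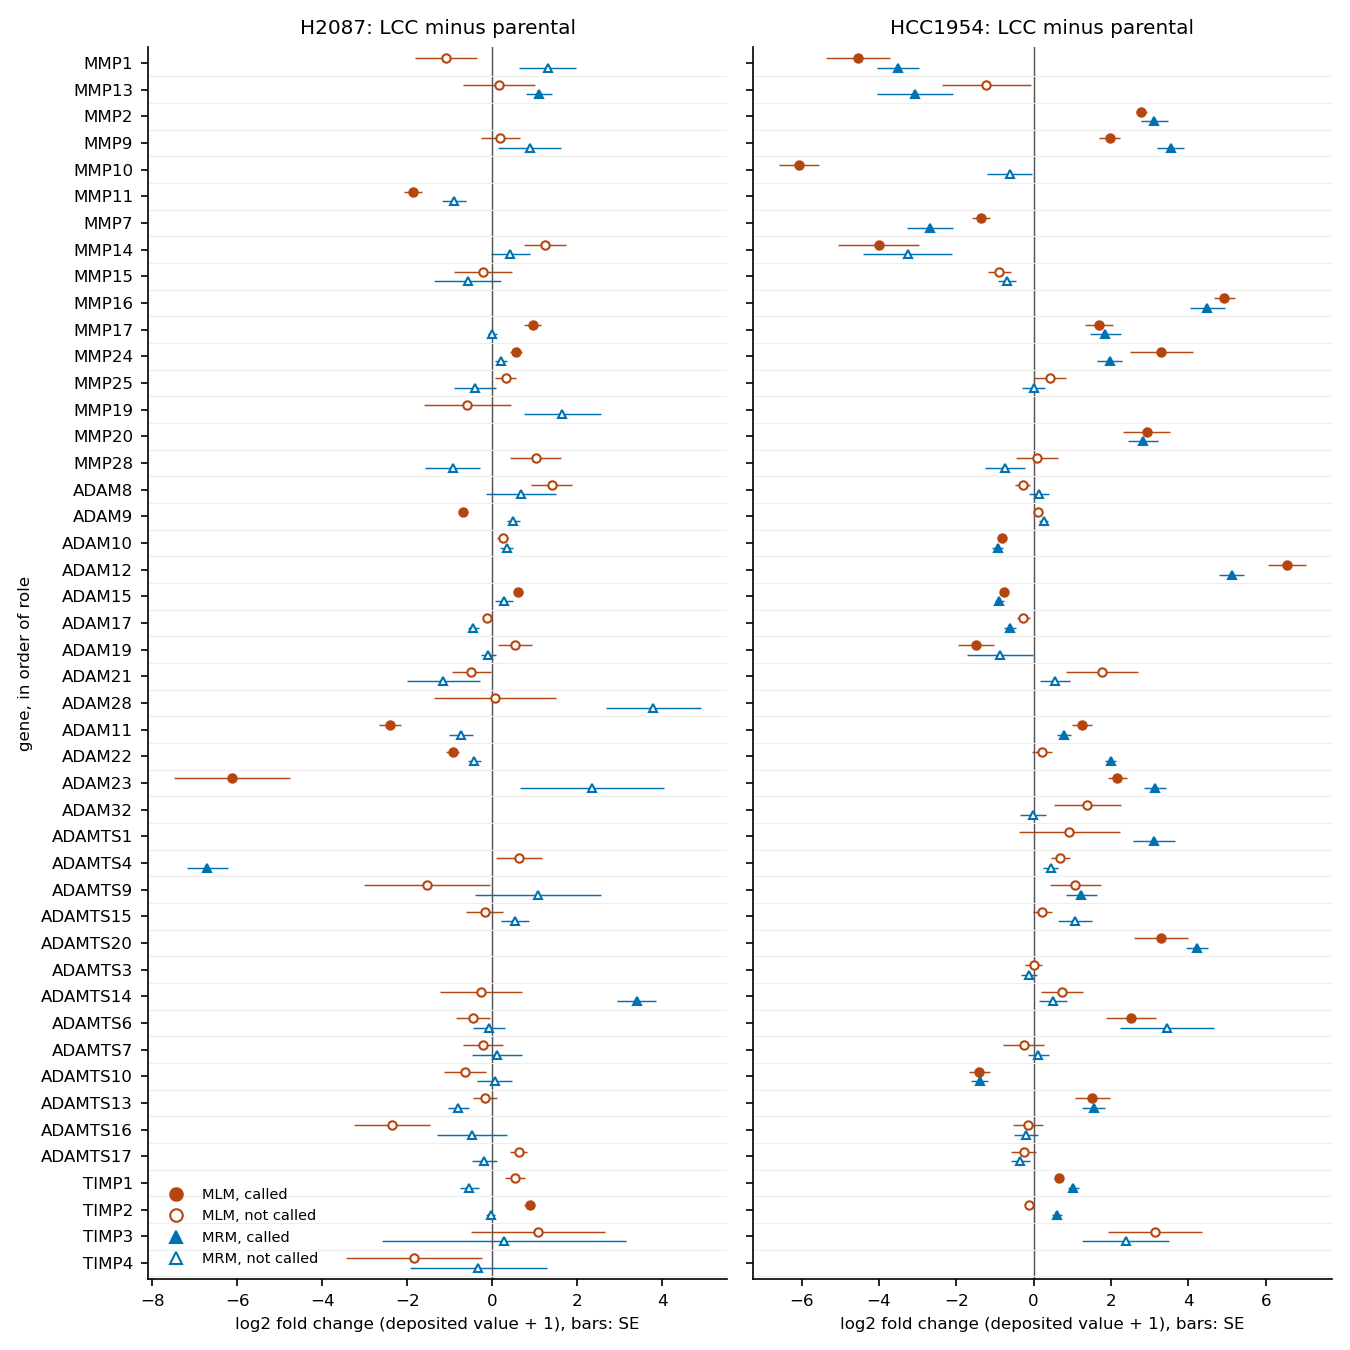
Log2 fold change, LCC minus parental, with its standard error, for each gene that passed in H2087 (36 genes) and HCC1954 (42 genes), ordered by role; circles are MLM, triangles are MRM, and filled marks passed at an adjusted p under 0.05. In HCC1954 most filled marks come in pairs on the same side of 0, while no H2087 gene has both marks filled.

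**Figure D2:**
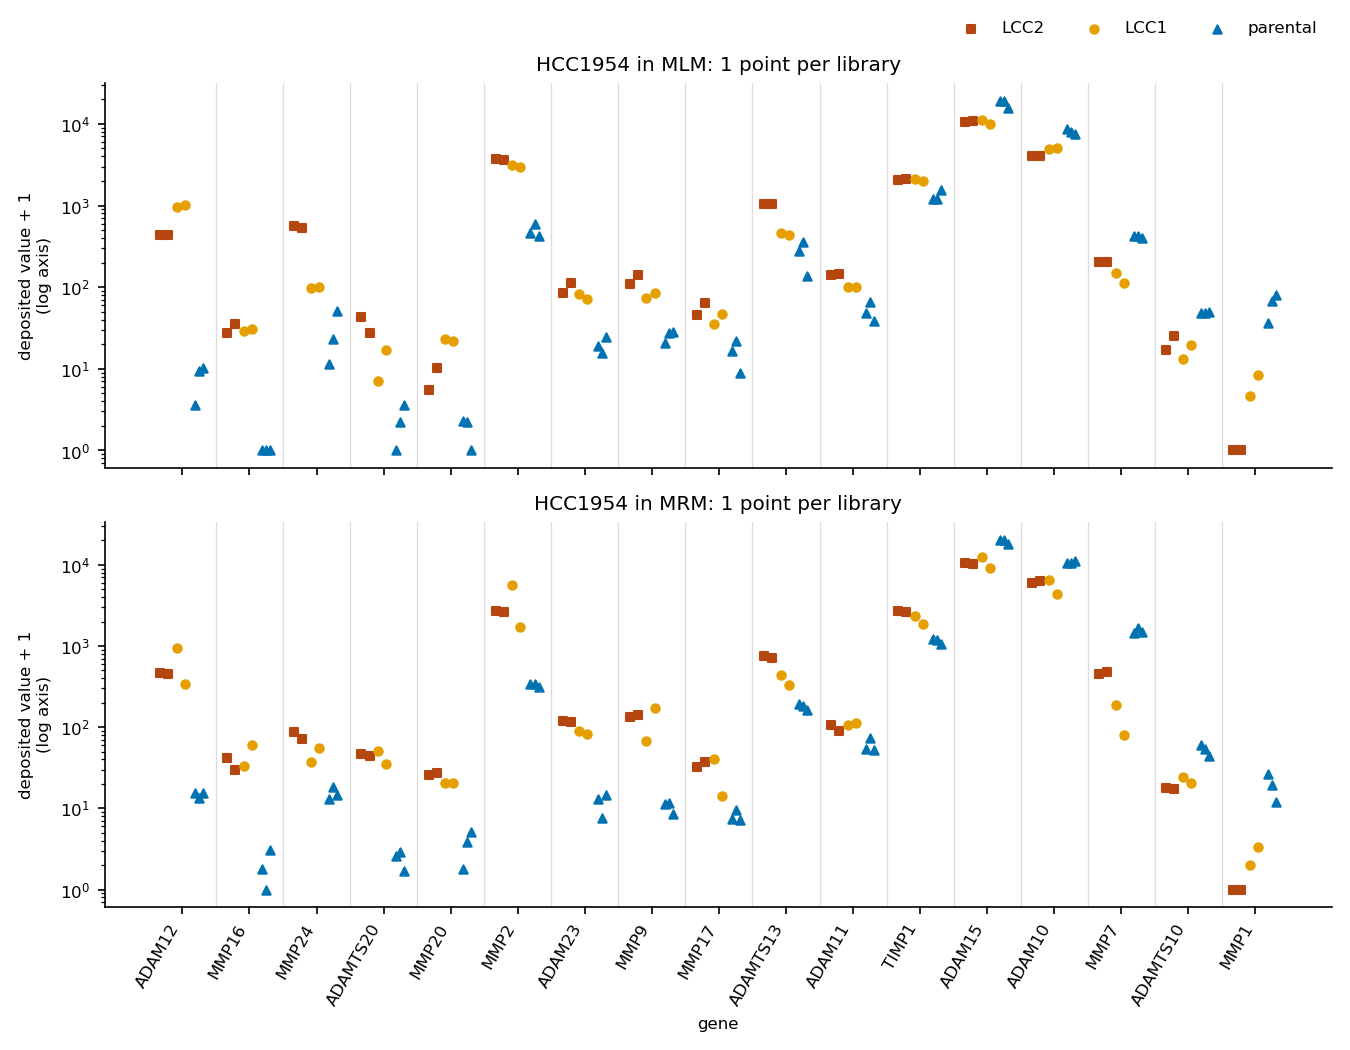
Normalised read count plus 1, on a log axis, in every HCC1954 library for the 17 genes that passed in both media, with MLM above and MRM below; squares are LCC2, circles LCC1 and triangles parental. The LCC and parental points do not overlap for any of these genes in either medium, and MMP1 lies at 0 reads in all 4 LCC2 libraries. Of all 15698 genes tested, 7236 in MLM and 8068 in MRM did not overlap either, and the 17 genes were chosen by their calls.

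The genes from MMP7 to MMP13 stand side by side on chromosome 11, in the order MMP7, MMP20, MMP27, MMP8, MMP10, MMP1, MMP3, MMP12 and MMP13 in the RefSeq annotation of GRCh38.p14, and no protein-coding gene of another family lies between them. Of these 9 genes, 5 passed in HCC1954 and 2, MMP1 and MMP13, in H2087. Of this cluster, MMP1, MMP7 and MMP10 fell in HCC1954 LCC cells in MLM, and MMP1, MMP7 and MMP13 fell in MRM. Outside it, MMP14 on chromosome 14 and ADAM12 on chromosome 10 carried the largest fall and the largest rise in MLM. The 250 bases before the start site of MMP10, MMP7, MMP14 and ADAM12, and of MMP20, a gene of the cluster that rose, are from RefSeq (GRCh38.p14). They are shown because members of 1 cluster moved in opposite directions. In this cluster MMP20 reached the limit on the mean only through the LCC libraries, and MMP10 and MMP1 only through the parental ones. Their directions were tied to that limit, so the contrast gives no independent support. An AP-1-like heptamer and a TATA box core are in capitals.
MMP10 promoter, chr11:102780629-102780878, minus strand: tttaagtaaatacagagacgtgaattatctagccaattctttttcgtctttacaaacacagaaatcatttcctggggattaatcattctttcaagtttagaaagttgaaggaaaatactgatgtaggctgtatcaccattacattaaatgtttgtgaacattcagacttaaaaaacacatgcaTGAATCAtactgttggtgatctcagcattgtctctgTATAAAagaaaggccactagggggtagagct
MMP7 promoter, chr11:102530748-102530997, minus strand: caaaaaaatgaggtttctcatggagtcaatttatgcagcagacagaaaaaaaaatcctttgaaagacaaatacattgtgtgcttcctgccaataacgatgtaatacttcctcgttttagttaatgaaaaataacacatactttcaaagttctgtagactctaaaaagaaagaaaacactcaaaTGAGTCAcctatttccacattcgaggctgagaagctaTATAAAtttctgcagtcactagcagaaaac
MMP20 promoter, chr11:102625333-102625582, minus strand: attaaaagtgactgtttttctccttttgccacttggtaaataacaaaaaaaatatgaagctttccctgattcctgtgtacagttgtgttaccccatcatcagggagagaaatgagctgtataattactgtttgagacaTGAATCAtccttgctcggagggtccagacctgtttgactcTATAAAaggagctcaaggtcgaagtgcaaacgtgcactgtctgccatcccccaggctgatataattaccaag
MMP14 promoter, chr14:22836335-22836584, plus strand: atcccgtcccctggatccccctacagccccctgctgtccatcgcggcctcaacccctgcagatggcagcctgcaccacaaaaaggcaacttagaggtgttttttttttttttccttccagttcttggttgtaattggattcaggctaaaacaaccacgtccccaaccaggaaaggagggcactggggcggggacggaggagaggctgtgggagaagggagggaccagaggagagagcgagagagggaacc
ADAM12 promoter, chr10:126388478-126388727, minus strand: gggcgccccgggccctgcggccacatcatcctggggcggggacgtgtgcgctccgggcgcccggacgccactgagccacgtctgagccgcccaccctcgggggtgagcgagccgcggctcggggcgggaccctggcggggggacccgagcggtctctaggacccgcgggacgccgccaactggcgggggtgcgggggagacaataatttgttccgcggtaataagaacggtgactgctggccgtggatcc
Both strands were searched for TGANTCA, which reads the same on either strand, and for TATAAA, and the motifs do not overlap each other here. MMP10 and MMP7 each held 1 TGANTCA that starts 67 bases before the start site, and 1 TATAAA that starts 31 bases before it in MMP10 and 30 in MMP7. MMP20 also held 1 of each, the heptamer from 112 and the TATA box core from 72 bases before the start site. The part of these motifs in the changes was not tested. The windows of MMP14 and ADAM12 held neither. Of 35116 promoters in the table, 2308 (6.57%) held TGANTCA and 3763 (10.7%) held TATAAA. Promoters of 27 of the 46 genes were in the table, and those of MMP1 and MMP13 were not. Of the 27, 3 held the heptamer (MMP7, MMP10 and MMP20) and 4 the TATA box core (those and ADAMTS10).

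Among the collagenases, which cut fibrillar collagen, MMP1 fell in LCC cells in both media. In MLM it had 0 and 0 normalised reads in LCC2 and 3.68 and 7.42 in LCC1, against 35, 66.9 and 79.5 in parental libraries. In MRM it had 0 and 0 in LCC2 and 1.03 and 2.34 in LCC1, against 25.6, 18.2 and 11 in parental libraries. Every LCC library lay below every parental one, with a log2 fold change of -4.54 ± 0.83 (SE, adjusted p = 0.00538) in MLM and -3.50 ± 0.54 (adjusted p = 0.00233) in MRM. The MMP1 span overlaps that of WTAPP1, and the counting strand is not given in the sources used here. Only whole spans were compared, so whether reads of the 2 genes were mixed was not tested. MMP13, the other collagenase, had 119 and 60.8 in LCC2 and 1168 and 1721 in LCC1 in MLM, against 1006, 799 and 670.2 in parental libraries. Its values in MRM were 38.4 and 25 in LCC2 and 613 and 74.2 in LCC1, against 662, 741 and 694. It fell only past the threshold in MRM, by 3.08 ± 0.99 on the log2 scale (adjusted p = 0.0423), and the adjusted p was 0.0667 to 0.117 without any 1 library other than LCC1 library 1, and 0.000756 without that one.

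MMP10, stromelysin 2, which cuts proteoglycans, laminin and fibronectin, had the lowest log2 fold change of the 42 genes in MLM. It had 0 and 0 normalised reads in LCC2 and 2.46 and 0 in LCC1, against 84.2, 115 and 76.9 in parental libraries. MMP10 reached the limit on the mean only through the parental libraries, so its direction was tied to that limit. From 2 reads in the LCC libraries and 219 in the parental ones, the parental level was 162 times the LCC level (95% Poisson interval 44.2 to 1340, for counting error only; adjusted p = 0.000278). In MRM it was near 0 throughout, with 0 and 0.676 in LCC2 and 0 and 3.13 in LCC1, against 1.6, 0.957 and 2.07 in parental libraries. MMP7, matrilysin, a small epithelial MMP that also releases membrane proteins, had 205 and 199.5 in LCC2 and 147 and 111 in LCC1 in MLM, against 427, 422 and 400.3 in parental libraries. In MRM it had 453 and 477 in LCC2 and 187 and 79.7 in LCC1, against 1445, 1659.9 and 1498. The groups did not overlap in either medium, and MMP7 fell by 1.37 ± 0.23 (adjusted p = 0.00357) in MLM and by 2.68 ± 0.59 (adjusted p = 0.0107) in MRM on the log2 scale. MMP20, enamelysin of the same cluster, went the other way: it had 48 reads over the LCC and 2 over the parental libraries in MLM, a ratio of 16.3 (95% interval 4.26 to 138), and a log2 fold change of 2.82 ± 0.39 (adjusted p = 0.00156) in MRM. MMP20 reached the limit on the mean only through the LCC libraries, so its direction was tied to that limit too.

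Both gelatinases, which cut denatured collagen and basement membrane, were higher in LCC cells in both media. MMP2 had 3676 and 3601 normalised reads in LCC2 and 3140.2 and 2993 in LCC1 in MLM, against 455, 592 and 421 in parental libraries. Its values in MRM were 2674 and 2619.5 in LCC2 and 5647 and 1727 in LCC1, against 339, 341 and 309.8. The log2 fold change was 2.78 ± 0.14 (adjusted p = 7.24e-05) in MLM and 3.12 ± 0.35 (adjusted p = 0.000689) in MRM. MMP9 had 107 and 139.8 in LCC2 and 72.5 and 82.9 in LCC1 in MLM, against 19.4, 26.7 and 27.4 in parental libraries. In MRM it had 131 and 141 in LCC2 and 65.8 and 172 in LCC1, against 10.4, 10.5 and 7.59. MMP9 rose by 1.96 ± 0.28 (adjusted p = 0.00181) in MLM and 3.54 ± 0.34 (adjusted p = 0.000359) in MRM on the log2 scale, and no LCC library lay within the parental range of either gene.

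The 6 membrane-type MMPs did not move together: 3 were higher and 1 lower in MLM, and 3 higher and 0 lower in MRM. These are 66.7% in MLM and 50% in MRM, against 35.5% and 38.3% of all genes tested. MMP14, which activates the MMP2 precursor at the cell surface, had 36.6 and 61.8 normalised reads in LCC2 and 587 and 600.2 in LCC1 in MLM, against 3122, 3726 and 1726 in parental libraries. Its values in MRM were 45.4 and 39.2 in LCC2 and 979 and 557 in LCC1, against 1743, 1740.3 and 1641. All LCC libraries were below all parental ones, and the LCC2 libraries were below the LCC1 libraries. In MLM the log2 fold change was -4.0 ± 1.05 (adjusted p = 0.0218), with adjusted p of 0.0755 without parental 1 and 0.0787 without parental 2. In MRM it was -3.26 ± 1.16 and did not pass (adjusted p = 0.06), but passed without LCC1 library 2, at -3.80 (adjusted p = 0.0374), or LCC1 library 1, at -4.08 (0.0214). MMP16, another membrane-anchored MMP, had 26.3 and 34.4 in LCC2 and 28.2 and 29.7 in LCC1 in MLM, against 0 in all 3 parental libraries, which makes it at least 23.5-fold higher in LCC cells with 3 counts over the parental group as the floor. In MRM its log2 fold change was 4.49 ± 0.44 (adjusted p = 0.0004). MMP24 had 560.1 and 531 in LCC2 and 97 and 99 in LCC1 in MLM, against 10.4, 21.9 and 49.5, and rose by 3.30 ± 0.82 in MLM (adjusted p = 0.018) and 1.97 ± 0.32 in MRM (adjusted p = 0.00293) on the log2 scale. In MLM the MMP24 call was lost without parental 1 (adjusted p = 0.0733) or parental 2 (0.0606). MMP17, held by a lipid anchor, rose by 1.68 ± 0.37 in MLM and 1.85 ± 0.40 in MRM. MMP15 had log2 fold changes of -0.89 in MLM and -0.68 in MRM and MMP25 did not pass in either medium.

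The ADAM sheddases split by gene. ADAM12, which releases EGF receptor ligands and binds integrins, showed the largest rise of all 42 genes in both media. It had 429 and 438 normalised reads in LCC2 and 955 and 1017 in LCC1 in MLM, against 2.59, 8.51 and 9.13 in parental libraries. In MRM it had 466 and 456 in LCC2 and 943 and 338 in LCC1, against 14.4, 12.4 and 14.5. The log2 fold change was 6.54 ± 0.49 (adjusted p = 0.000185) in MLM and 5.12 ± 0.33 (adjusted p = 8.41e-05) in MRM. ADAM10, the main sheddase of Notch and cadherins, had 4051 and 4077 in LCC2 and 4964 and 5114 in LCC1 in MLM, against 8578, 7928 and 7492 in parental libraries, and 5926 and 6237 in LCC2 and 6416 and 4328 in LCC1 in MRM, against 10626, 10547 and 11233. ADAM15, an adhesion-linked sheddase, had 10615 and 10689 in LCC2 and 11072 and 10038 in LCC1 in MLM, against 19232, 18880.2 and 15736 in parental libraries. Both fell without overlap, ADAM10 by 0.82 ± 0.12 in MLM and 0.93 ± 0.14 in MRM and ADAM15 by 0.75 ± 0.10 in MLM and 0.89 ± 0.12 in MRM on the log2 scale, with adjusted p between 0.00123 and 0.00241. ADAM17, which releases TNF and many EGF receptor ligands, passed only in MRM, at -0.61 ± 0.16 (adjusted p = 0.0183), and lost the call without parental 1, 2 or 3 (adjusted p = 0.0609 to 0.0734). ADAM19 passed only in MLM, at -1.49 ± 0.46 (adjusted p = 0.0388), a call lost without any 1 parental library (adjusted p = 0.0868 to 0.116) or either LCC2 library (0.0629 and 0.0745). ADAM9 had log2 fold changes of 0.10 in MLM and 0.26 in MRM that did not pass. The ADAM10 span overlaps HSP90AB4P and the ADAM17 span overlaps IAH1. Only whole spans were compared, so whether reads of these genes were mixed was not tested.

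The ADAMs without a known protease activity rose where they passed, 2 of 4 in MLM and 3 of 4 in MRM. These are 50% and 75%, against 35.5% and 38.3% of all genes tested. ADAM23, an adhesion protein known from neurons, had 84.6 and 111 normalised reads in LCC2 and 81.1 and 70.5 in LCC1 in MLM, against 18.1, 14.6 and 23.5 in parental libraries. Its values in MRM were 117 and 115 in LCC2 and 89.4 and 82 in LCC1, against 12, 6.7 and 13.8. It rose by 2.16 ± 0.25 (adjusted p = 0.000828) in MLM and 3.14 ± 0.28 (adjusted p = 0.000263) in MRM on the log2 scale. ADAM11, a relative of ADAM23, rose by 1.25 ± 0.26 in MLM and 0.79 ± 0.18 in MRM, the second with adjusted p of 0.0588 without parental 1 and 0.057 without parental 3. ADAM22, a receptor for the secreted protein LGI1, had 152 and 153 in LCC2 and 162 and 135 in LCC1 in MRM, against 35.9, 38.3 and 37.3 in parental libraries, a log2 fold change of 1.99 ± 0.14 (adjusted p = 0.000115). In MLM it had 170.3 and 188 in LCC2 and 113 and 120.0 in LCC1, against 123, 156 and 100.4, and the groups overlapped.

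Of 5 ADAMTS proteoglycanases measured, 1 was higher in MLM and 3 in MRM, and none was lower in either medium at a limma adjusted p under 0.05. These are 20% in MLM and 60% in MRM, against 35.5% and 38.3% of all genes tested. ADAMTS20, an ADAMTS with a role in melanoblast migration in mice, had 42.3 and 26.3 normalised reads in LCC2 and 6.14 and 16.1 in LCC1 in MLM, against 0, 1.22 and 2.61 in parental libraries, a ratio of 18.3 (95% interval 6.04 to 90.6) from 81 and 3 reads. In MRM its log2 fold change was 4.23 ± 0.29 (adjusted p = 9.83e-05). ADAMTS1, which cuts aggrecan and versican, had 92.5 and 98 in LCC2 and 23.6 and 104 in LCC1 in MRM, against 7.99, 4.79 and 8.97, and rose by 3.12 ± 0.54 (adjusted p = 0.00391). In MLM ADAMTS1 had 174 and 177 in LCC2 but 6.14 and 6.19 in LCC1, against 13, 21.9 and 19.6, so that the derivatives lay on either side of the parental range. ADAMTS9, another versican-cutting enzyme, passed only in MRM, at 1.23 ± 0.40 (adjusted p = 0.0447). Of the other ADAMTS genes, ADAMTS13, the protease of von Willebrand factor, rose by 1.52 ± 0.46 in MLM (adjusted p = 0.0368) and 1.55 ± 0.30 in MRM (adjusted p = 0.00571), and the MLM call was lost without parental 3 (adjusted p = 0.111), parental 1 (0.0839) or either LCC2 library (0.0748 and 0.0745). ADAMTS10, a partner of fibrillin microfibrils, had 16 and 24.3 in LCC2 and 12.3 and 18.6 in LCC1 in MLM, against 46.6, 47.4 and 48.2, and fell by 1.40 in both media (adjusted p = 0.00608 in MLM and 0.00281 in MRM). ADAMTS6 passed in MLM at 2.51 ± 0.65 (adjusted p = 0.0211) and not in MRM (3.44 ± 1.21, adjusted p = 0.0577), where LCC1 library 2 alone had 541 and the other LCC libraries 13.5 to 46.2, against 1.6 to 7.59 in parental libraries.

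TIMP1, an inhibitor of most secreted MMPs, had 2069 and 2125 normalised reads in LCC2 and 2082 and 1992 in LCC1 in MLM, against 1215, 1213 and 1535 in parental libraries. In MRM it had 2664 and 2605 in LCC2 and 2312 and 1864 in LCC1, against 1206, 1177 and 1070.1. TIMP1 rose by 0.65 ± 0.11 (adjusted p = 0.00312) in MLM and 1.02 ± 0.14 (adjusted p = 0.00136) in MRM on the log2 scale, and its span overlaps SYN1. TIMP2, which inhibits MMP2 and also takes part in its activation by MMP14, had 11109 and 10631 in LCC2 and 9853 and 9855 in LCC1 in MLM, against 12506, 11335 and 10139, and overlapped. In MRM TIMP2 had 10416 and 10242 in LCC2 and 14013 and 12944 in LCC1, against 7782, 7685 and 7724, and rose by 0.61 ± 0.13 (adjusted p = 0.00866). TIMP3, which binds the matrix and also blocks ADAM17 and ADAMTS enzymes, had 115 and 106 in LCC2 and 8.6 and 7.42 in LCC1 in MLM, against 6.48, 0 and 5.22. Its values in MRM were 102 and 119.7 in LCC2 and 19.5 and 3.13 in LCC1, against 6.39, 3.83 and 5.52. Only LCC2 was far above the parental libraries, and over both derivatives the fold change of TIMP3 did not pass in MLM (adjusted p = 0.0822) or MRM (0.136). TIMP3 reached the limit on the mean only through LCC2, so the high level in LCC2 was tied to that limit. TIMP4 did not reach the limit in this line.

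Set against each other over both media with medium as a term, LCC2 and LCC1 differed in 17 of 42 genes, 9 higher and 8 lower in LCC2. This is 40.5%, against 45.2% of all genes tested, so the share was near the background. The largest difference was that of MMP14, 3.86 ± 0.23 lower in LCC2 on the log2 scale (adjusted p = 5.62e-05), and the next that of TIMP3, 3.62 ± 0.44 higher (adjusted p = 0.000562). TIMP3 reached the limit on the mean only through the LCC2 libraries, so its direction was tied to that limit and gives no independent support. MMP13 fell by 3.40 ± 0.63 in LCC2 (adjusted p = 0.00371) and ADAM19 fell by 2.26 ± 0.30 (adjusted p = 0.000798). ADAM19 had 312 and 274 normalised reads in LCC2 against 890.4 and 896 in LCC1 in MLM, and 238 and 224 in LCC2 against 1259 and 2454 in LCC1 in MRM. MMP1 had no read in 4 LCC2 libraries and 13 in LCC1, which was at least 5.02-fold higher. ADAMTS1 rose by 2.77 ± 0.77 in LCC2 (adjusted p = 0.0198), a call lost without any 1 of the 4 MLM libraries (adjusted p = 0.0624 to 0.0629). Without LCC1 library 2 of MRM, 23 genes passed, 10 higher and 13 lower, beside 8569 of all 15698 genes tested. Against parental cells alone, the derivatives differed in direction for MMP13 in MLM: the log2 fold change was -3.24 for the LCC2 libraries (adjusted p = 0.00115) and 0.80 for the LCC1 libraries (adjusted p = 0.0324). For MMP14 it was -5.81 for LCC2 and -2.19 for LCC1 in MLM.

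The medium was then compared within each HCC1954 group. Between MLM and MRM, 0 of 42 genes passed in LCC cells in limma, against 11.9% of all genes, and 0 passed in edgeR. At an unadjusted limma p under 0.05 there were 5 of the 42 genes, against 4530 of all 15698 genes tested. With the library name as a block in limma, 4 passed, all higher in MLM, against 28.4% of all genes. They were MMP13 at 2.07 (adjusted p = 0.0462), MMP24 at 1.97 (0.0155), ADAMTS16 at 0.65 (0.015) and MMP15 at 0.61 (0.0087). Libraries of the same name share a derivative, but the number within the derivative pairs them by label only. Correlations across media were 0.501 to 0.683 for the same number and 0.488 to 0.68 for the other library of the derivative. In parental cells 12 were higher and 4 lower in MLM, which is 38.1%, against 44.7% of all genes. MMP10 rose most, by 5.20 ± 0.28 on the log2 scale (adjusted p = 0.000102), with 84.2, 115 and 76.9 normalised reads in MLM and 1.6, 0.957 and 2.07 in MRM. ADAM22 rose by 1.72 ± 0.19 (adjusted p = 0.000803) and MMP1 by 1.67 ± 0.40 (0.0144), a call that was lost without parental 3 of MRM (adjusted p = 0.0555). MMP7 fell by 1.88 ± 0.08 (adjusted p = 7.67e-05) and ADAM21 by 2.60 ± 0.72 (0.024). MMP10 and MMP1 reached the limit on the mean only in MLM, and ADAM21 only in MRM. The direction of each of them between media was therefore tied to that limit and gives no independent support. The ADAM21 call was lost without parental 2 of MLM (adjusted p = 0.0638) or any 1 parental library of MRM (0.0553 to 0.0874), and its log2 fold change was -1.92 without parental 1 of MLM and -3.38 without parental 3 of MLM. Without parental 3 of MLM, 24 genes passed, and without any 1 of the 3 parental libraries of MRM 7 to 10 passed. Of all genes tested, 10399 and 4372 to 4561 passed in those fits.

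The difference between the LCC effects in MLM and in MRM was tested itself. In HCC1954 it passed for 0 genes upward and 2 downward, or 4.76% of the 42 genes, against 0.153% of all genes tested. They were MMP10, at -5.45 ± 0.79 (adjusted p = 0.0342), whose parental level was high only in MLM, and ADAM22, at -1.77 ± 0.28 (adjusted p = 0.0408), whose parental level was low only in MRM. Neither passed in edgeR (adjusted p = 0.119 for MMP10 and 0.0533 for ADAM22), and 0 passed without parental 1 or 2 of MLM or any parental library of MRM. Without an LCC library 0 to 2 passed. With the library name as a block the same 2 genes passed, against 0.733% of all genes. MMP10 reached the limit on the mean only through the parental libraries in MLM, so the sign of its difference was tied to that limit.

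**Figure D3:**
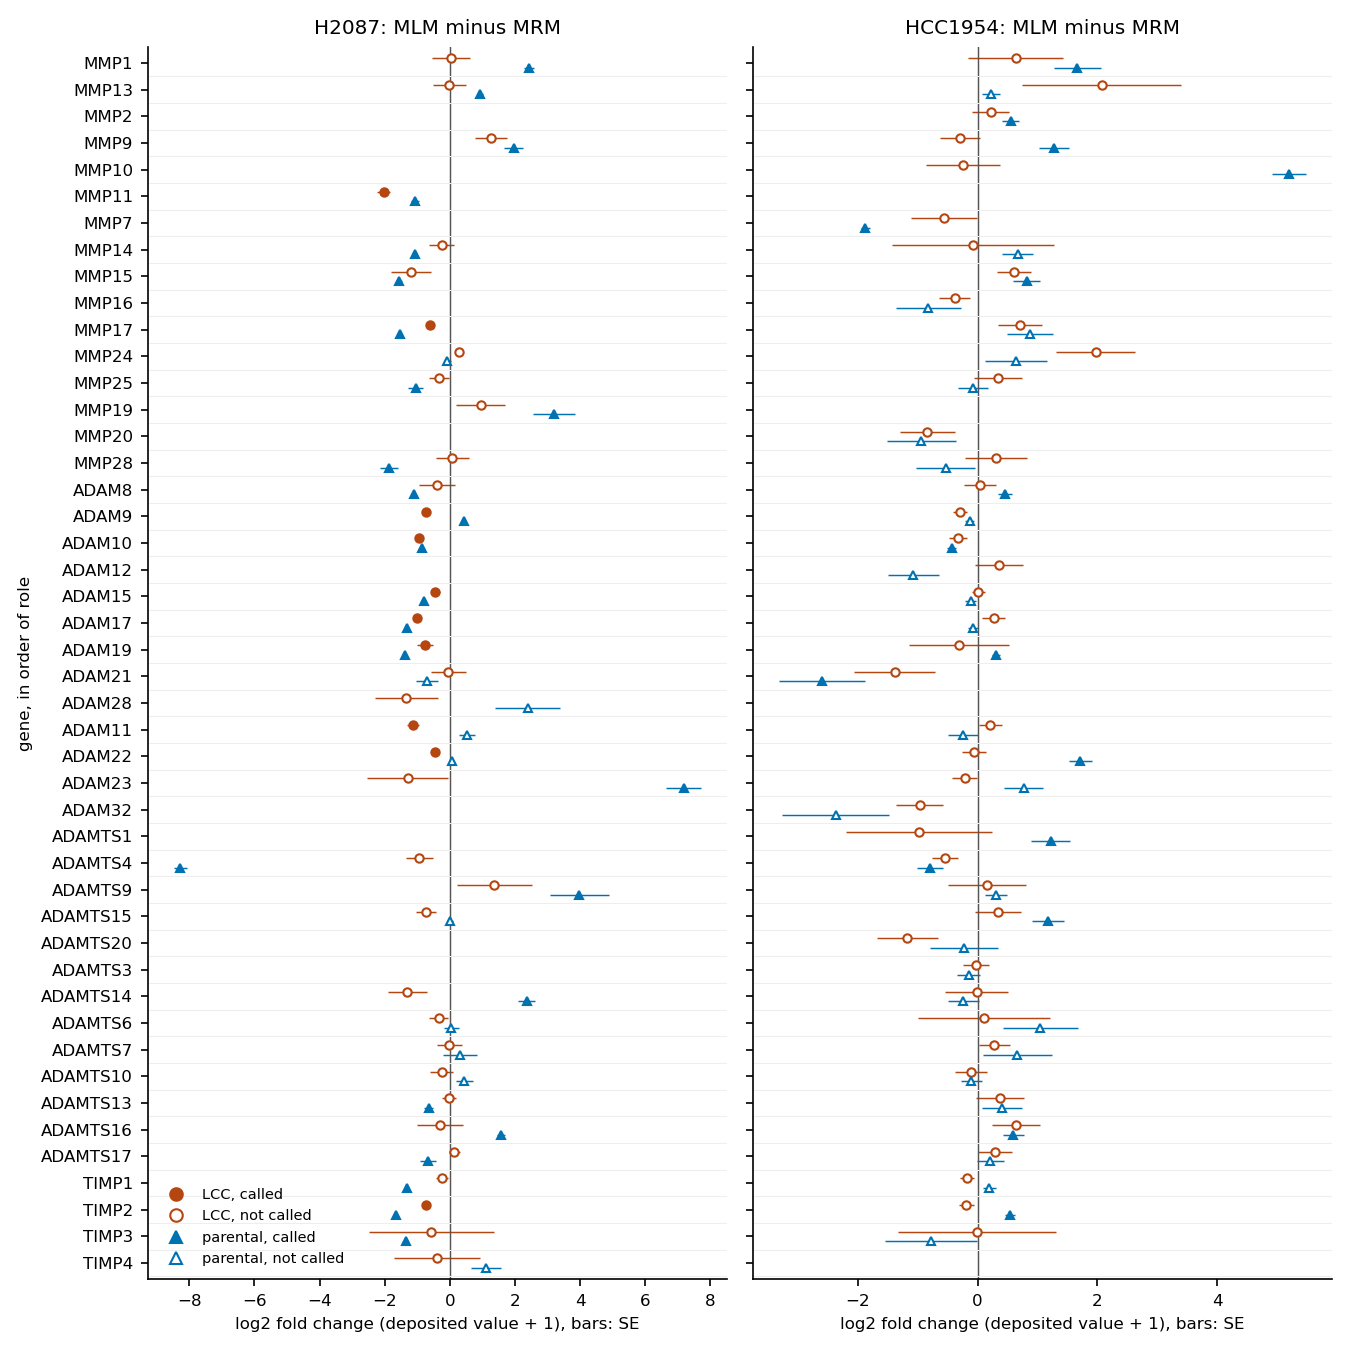
Log2 fold change, MLM minus MRM, with its standard error, per gene in H2087 and HCC1954; circles are LCC and triangles parental libraries, and filled marks passed at an adjusted p under 0.05. In H2087 the filled LCC marks all lie below 0, and in HCC1954 no LCC mark is filled while the parental marks of MMP10 and MMP7 lie far above and far below 0. In HCC1954 MMP10 reached the limit on the mean only in MLM, so the direction of its mark was tied to that limit.

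In H2087 fewer genes separated LCC from parental cells. In MLM, 4 of 36 were higher and 5 lower in LCC libraries, which is 25%, against 13.5% of all genes tested. In MRM, 2 were higher and 1 lower, which is 8.33%, against 14.2% of all genes. The median log2 fold change was -0.146 in MLM and 0.0316 in MRM, against 0.00479 and -0.000379 over all genes, and no gene passed in both media, against 2.62% of all genes. With only 2 parental libraries the count in MLM rested on each of them. Without either one, fewer genes passed, both among these genes and among all genes tested. In MRM 3 genes passed without LCC6, whose library was close to that of LCC5, with 1499 of all 12694 genes tested. Without LCC2 7 passed (2010 of all genes), without LCC4 6 (2266) and without LCC1 2 (1445). Without either parental library fewer passed in MRM too, again among all genes as well. Lung markers summed to 132 to 553 in LCC and 208 to 215 in parental libraries in MLM, and to 737 to 2600 and 3560 to 3880 in MRM. Fibroblast markers summed to 276 to 686 in LCC and 323 to 371 in parental libraries in MLM, and to 475 to 957 and 1040 to 1090 in MRM. Blood markers summed to 2490 to 5210 in LCC and 5790 to 5970 in parental libraries in MLM, and to 5110 to 8390 and 7220 to 7240 in MRM, with PTPRC at or near 0. Endothelial markers summed to 41 to 301 in LCC and 58.5 to 89 in parental libraries over both media. The part of these markers in the results was not tested.

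**Figure D4:**
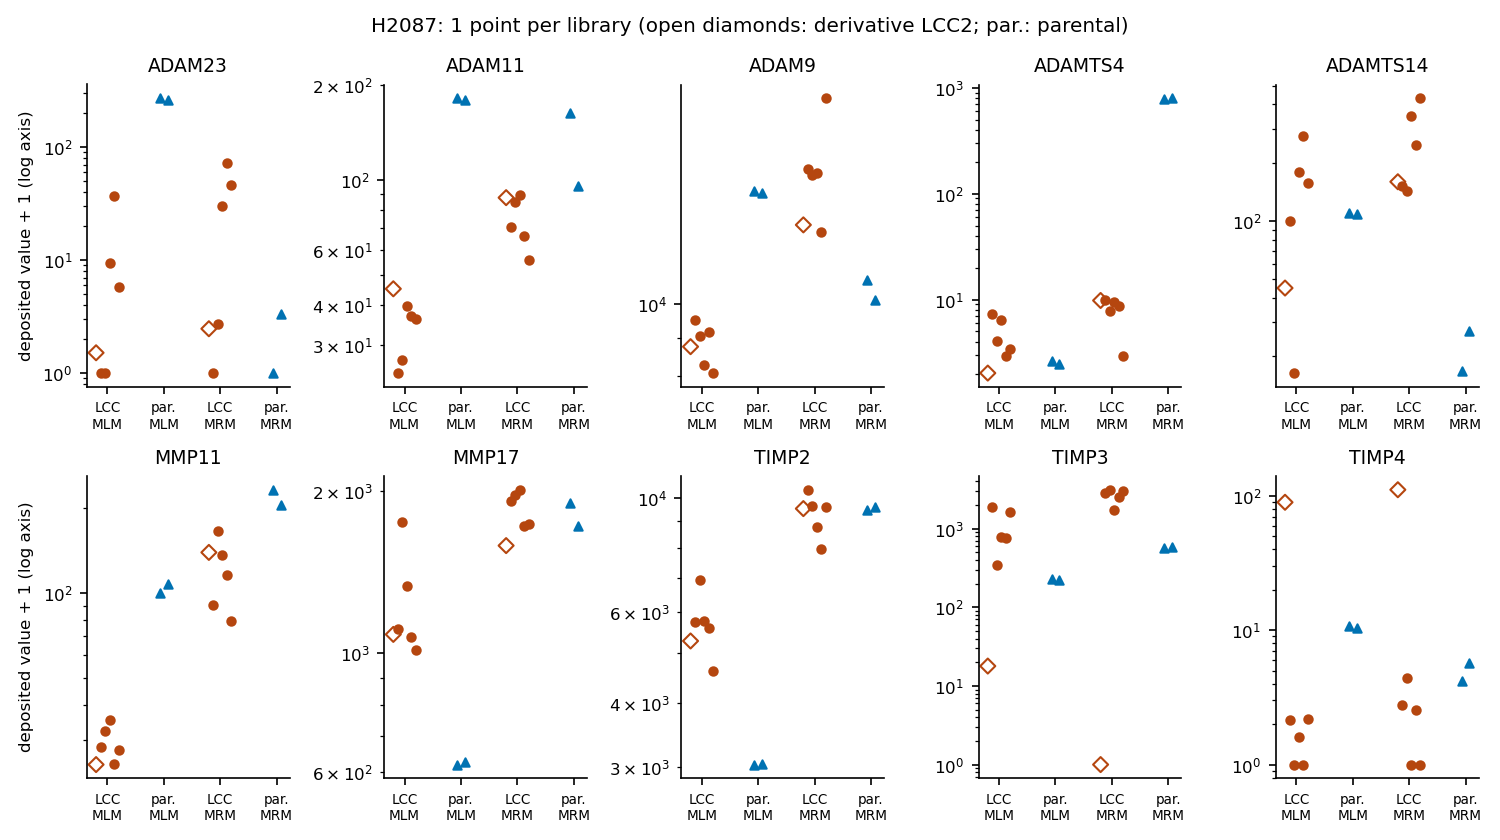
Normalised read count plus 1, on a log axis, in every H2087 library for 10 genes; each panel shows LCC and parental libraries in MLM and then in MRM, and circles are LCC, triangles parental and open diamonds derivative LCC2. ADAM23 is highest in parental cells in MLM and ADAMTS4 in parental cells in MRM, and LCC2 departs from the other derivatives in TIMP3 and TIMP4. ADAMTS4 reached the limit on the mean only through the parental libraries in MRM, and TIMP4 only through LCC2. The patterns of ADAMTS4 and TIMP4 were therefore tied to that limit.

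The 3 ADAMs without a known protease activity all fell in H2087 LCC cells in MLM, against 13.5% of all genes tested that passed in either direction. ADAM23 had a lowest, median and highest value of 0, 2.64 and 35.9 normalised reads over the 6 LCC libraries, against 269 and 261 in parental libraries. In MRM it had 0, 15.3 and 71.2 in LCC libraries, against 0 and 2.36 in parental libraries, where only 1 read was counted. The fold change in MLM was -6.13 ± 1.36 on the log2 scale (adjusted p = 0.0234). ADAM11 had 23.4, 35.5 and 44.1 in LCC libraries in MLM, against 179.9 and 177, and fell by 2.40 ± 0.26 (adjusted p = 0.00153). ADAM22 had 277, 341 and 387, against 654 and 606, and fell by 0.93 ± 0.15 (adjusted p = 0.00696). The ranges did not overlap for these 3 genes in MLM, which held for 4571 of all 12694 genes tested. The calls of ADAM23 and ADAM22 were lost without parental 1 (adjusted p = 0.191 and 0.119) or parental 2 (0.195 and 0.091). In HCC1954 the same 3 genes had positive fold changes wherever they passed, and the difference between the lines was not tested.

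Among the sheddases of H2087, ADAM9 had 8077, 8905 and 9512 normalised reads in LCC libraries in MLM, against 14163 and 14104 in parental libraries, and fell by 0.68 ± 0.07 (adjusted p = 0.00132). ADAM15 had 11268, 12400.4 and 15578, against 8052 and 8511, and rose by 0.61 ± 0.11 (adjusted p = 0.0112). ADAM15 lost its call without parental 1 (adjusted p = 0.151) or parental 2 (0.113). In MRM ADAM9 had 12500.4, 14936 and 18869, against 10759 and 10119.5, without overlap but not past the threshold. ADAM8, a sheddase known from leukocytes, had 1016, 2999 and 3800.3 in MLM, against 930.4 and 972, with a log2 fold change of 1.40 ± 0.47 (adjusted p = 0.0899). ADAM10 and ADAM17 did not pass in either medium.

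Of the H2087 MMPs, MMP11, stromelysin 3, fell in LCC cells in MLM and 2 membrane-type MMPs rose. MMP11 had 23.6, 27.1 and 34.4 normalised reads, against 98.6 and 106, a log2 fold change of -1.85 ± 0.21 (adjusted p = 0.00176), which did not pass without parental 2 (adjusted p = 0.0546). MMP17 had 1013, 1094 and 1751, against 618 and 626, and rose by 0.95 ± 0.20 (adjusted p = 0.018). MMP24 had 236, 275 and 336, against 198 and 185, and rose by 0.56 ± 0.15 (adjusted p = 0.0435). Neither passed without parental 1 or parental 2, and MMP24 also did not without LCC1, LCC3 or LCC5 (adjusted p = 0.0676 to 0.08). MMP14 had 13297, 34028 and 50944 in MLM, against 12245 and 12753, and 18022, 37902 and 65985 in MRM, against 27022 and 25365. Its log2 fold change in MLM, 1.24 ± 0.48, did not pass (adjusted p = 0.131). In MRM the only MMP that passed was MMP13, with 271, 359 and 653, against 188 and 170.2, at 1.11 ± 0.30 (adjusted p = 0.0444). That call was lost without parental 1 or 2, LCC1, LCC3 or LCC6 (adjusted p = 0.0559 to 0.248), by edgeR (0.0526) and in a fit of all 4 groups (0.25).

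The other genes that passed in MRM were ADAMTS genes. ADAMTS4, an aggrecanase, had 1.95, 8.13 and 8.97 normalised reads in LCC libraries, against 783 and 794 in parental libraries, a log2 fold change of -6.70 ± 0.49 (adjusted p = 0.00032). In MLM it was near 0 in all cells, with 1.02, 2.73 and 6.27 in LCC and 1.62 and 1.48 in parental libraries. ADAMTS4 reached the limit on the mean only through the parental libraries in MRM, so its direction there was tied to that limit. ADAMTS14, a procollagen N-proteinase, had 142, 202 and 429.8 in MRM, against 15.8 and 26, and rose by 3.40 ± 0.46 (adjusted p = 0.00345), with adjusted p of 0.0691 without parental 1. In MLM ADAMTS14 had 15.4, 128 and 272 in LCC libraries, which reached to either side of the parental values of 109 and 108. No ADAMTS gene passed in MLM; ADAMTS16 had the lowest fold change there, at -2.36 ± 0.89 (adjusted p = 0.121).

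TIMP2 had 4609.8, 5667 and 6933 normalised reads in H2087 LCC libraries in MLM, against 3034 and 3044 in parental libraries, and rose by 0.88 ± 0.13 (adjusted p = 0.00478), a call lost without parental 1 (adjusted p = 0.076) or parental 2 (0.0806). In MRM TIMP2 had 7957, 9562 and 10366, against 9471 and 9599.6, and overlapped. TIMP1 had 4529, 6213 and 8586 in MLM, against 4096 and 4317, and 5347, 7920.1 and 9337 in MRM, against 10575 and 10448, and passed in neither. TIMP3 had 16.9, 766 and 1911 in MLM, against 228 and 219.6, and 0, 2663 and 3127 in MRM, against 565 and 586. In both media the lowest value was that of LCC2, and the other derivatives had 340 or more in MLM and 1730 or more in MRM, above both parental libraries. TIMP4 had 0, 0.872 and 88.6 in MLM, against 9.7 and 9.4, and 0, 1.67 and 110.1 in MRM, against 3.16 and 4.73. Its highest value was that of LCC2 in both media, so LCC2 had the lowest TIMP3 and the highest TIMP4 of the derivatives. TIMP4 reached the limit on the mean only through LCC2, since every other library lay below 10. The high TIMP4 of LCC2 was therefore tied to that limit and gives no independent support. Neither gene passed in either medium, and the TIMP3 span overlaps SYN3 and the TIMP4 span SYN2.

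Between media, H2087 LCC cells had 0 genes higher and 10 lower in MLM than in MRM, which is 27.8%, against 32.5% of all genes. The median of the 36 genes was -0.388, against 0.0143 over all genes. MMP11 fell by 2.03 ± 0.20 (adjusted p = 1.67e-05), ADAM11 by 1.13 ± 0.19 (0.000808), ADAM17 by 0.99 ± 0.08 (5.02e-06), ADAM10 by 0.95 ± 0.11 (6.88e-05), ADAM9 by 0.74 ± 0.09 (9.1e-05) and TIMP2 by 0.73 ± 0.09 (0.000104). ADAM10 had 2969, 4003 and 4282 normalised reads in MLM, against 6414, 7348 and 9476 in MRM. ADAM17 had 1526, 1562 and 1746 in MLM, against 2641, 3288 and 3644 in MRM, so neither gene overlapped between media. Of all 12694 genes tested, 2033 did not overlap. ADAM19 had 907, 1667 and 2440.0 in MLM, against 1844, 2582 and 3146 in MRM, and lost its call without any 1 of 7 libraries (adjusted p = 0.0519 to 0.0696). With the library name as a block, 18 genes passed, 3 higher and 15 lower, against 48.5% of all genes. Depth in H2087 was 44.6 to 54 M reads in MLM and 16.2 to 20.8 M in MRM for these libraries, and its part in the result was not tested.

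In H2087 parental cells, 9 genes were higher and 17 lower in MLM, which is 72.2%, against 71.7% of all genes, so the share was that of the background. The 9 that rose were ADAM23, ADAMTS9, MMP19, MMP1, ADAMTS14, MMP9, ADAMTS16, MMP13 and ADAM9. From 1027 reads in MLM and 1 in MRM, ADAM23 was 280 times higher in MLM (95% interval 50.1 to 11100), with a log2 fold change of 7.18 in all, 6.31 without parental 1 of MRM and 8.06 without parental 2 of MRM. ADAMTS9 was 15.8 times higher (5.31 to 77.3, from 174 and 3 reads), a call lost without parental 1 of MLM (adjusted p = 0.0901) or parental 2 of MLM (0.0594), with a log2 fold change of 3.98 in all, 2.47 without parental 1 of MRM and 5.49 without parental 2 of MRM. MMP19 was 14.4 times higher (2.48 to 580, from 53 and 1 reads), with a log2 fold change of 3.19 in all, 3.87 without parental 1 of MRM and 2.50 without parental 2 of MRM. MMP1 had 289 and 280.0 normalised reads in MLM, against 60.1 and 44.9 in MRM, and rose by 2.43 ± 0.16 (adjusted p = 1.03e-05). ADAMTS4 fell most, by 8.27 ± 0.19 (adjusted p = 2.28e-07), with 1.62 and 1.48 in MLM, against 783 and 794 in MRM. ADAMTS4 reached the limit on the mean only in MRM and MMP19 only in MLM. The direction of both between media was therefore tied to that limit and gives no independent support. All TIMPs that passed fell: TIMP2 by 1.65 ± 0.04, TIMP3 by 1.36 ± 0.08 and TIMP1 by 1.32 ± 0.04. Of the 5 membrane-type MMPs, MMP14, MMP15, MMP17 and MMP25 fell and MMP24 did not pass. A fit of all 4 groups together gave 12 calls.

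The LCC effect differed between media for 3 genes upward and 3 downward in H2087, 16.7% of 36, against 10.9% of all genes tested. The upward ones were ADAMTS4, at 7.34 ± 0.74 (adjusted p = 6.02e-05), MMP17, at 0.94 ± 0.23 (0.0182), and TIMP2, at 0.92 ± 0.17 (0.0033). The downward ones were ADAM23, at -8.48 ± 2.32 (0.0315), ADAM11, at -1.66 ± 0.38 (0.0128), and ADAM9, at -1.18 ± 0.17 (0.000655). ADAMTS4 reached the limit on the mean only through the parental libraries in MRM, so the sign of its difference was tied to that limit. ADAM9 stood below its parental level in MLM and above it in MRM. ADAM23 and MMP17 lost the call without any 1 of the 4 parental libraries, and ADAM11 without parental 1 or 2 of MLM or parental 2 of MRM. With the library name as a block, 6 genes passed upward and 10 downward, 16 of 36 in all, against 27.2% of all genes; the parental names share only a number. For ADAM23, ADAMTS4 and TIMP2 the groups that moved most between media were the parental ones.

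Across the lines, 8 genes passed between LCC and parental cells in at least 1 medium of each. They are 25% of the 32 genes tested in both lines, against 13.2% of all genes tested in both. MMP17 and MMP24 were higher in LCC cells in H2087 MLM and in both HCC1954 media, and TIMP2 was higher in H2087 MLM and in HCC1954 MRM. ADAM11, ADAM22 and ADAM23 were lower in H2087 MLM and higher in HCC1954. ADAM15 was higher in H2087 MLM, at 0.61, and lower in HCC1954, at -0.75 in MLM and -0.89 in MRM. MMP13 was higher in H2087 MRM and lower in HCC1954 MRM. Of the 46 genes, 31 passed in at least 1 of the 4 comparisons of LCC with parental cells, which is 67.4%, against 56.3% of all genes tested in either line. The other 15 were ADAM8, ADAM21, ADAM28, ADAM32, ADAMTS3, ADAMTS7, ADAMTS15, ADAMTS16, ADAMTS17, MMP15, MMP19, MMP25, MMP28, TIMP3 and TIMP4, whose log2 fold changes lay between -2.36 and 3.79. No test set the lines against each other, since their tables were normalised separately.

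Lists of activators, substrates and related proteases were read from the same fits. Of the listed activators and regulators, which hold the proprotein convertases that remove prodomains and the tetraspanins that guide ADAM10, 0 of 15 were higher and 5 lower in HCC1954 LCC cells in MLM, and 0 higher and 4 lower in MRM. These are 33.3% in MLM and 26.7% in MRM, below the 35.5% and 38.3% of all genes tested. TSPAN15, a tetraspanin that binds ADAM10, had 1410 to 1856 normalised reads in LCC libraries in MLM, against 2912 to 3979 in parental libraries, and 698 to 1475 in MRM, against 2874 to 3084. It fell by 1.12 ± 0.15 (adjusted p = 0.00145) in MLM and 1.54 ± 0.23 (0.00189) in MRM, beside the fall of ADAM10. In H2087, 0 of 14 were higher and 3 lower in MLM, and 1 higher and 0 lower in MRM, or 21.4% and 7.14%, against 13.5% and 14.2% of all genes. PCSK6, a proprotein convertase, had a lowest, median and highest value of 1.19, 4.43 and 10.2 in LCC libraries in MLM, against 199.8 and 203 in parental libraries, and fell by 5.33 ± 0.60 (adjusted p = 0.00166).

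Of the listed shed membrane proteins, the substrates of ADAMs, 3 of 20 were higher and 6 lower in HCC1954 LCC cells in MLM, and 2 higher and 5 lower in MRM. These are 45% in MLM and 35% in MRM, against 35.5% and 38.3% of all genes. AXL, a receptor tyrosine kinase shed by ADAM10 and ADAM17, rose by 3.90 ± 0.27 (adjusted p = 0.00015) in MLM and 5.12 ± 0.66 (0.00114) in MRM. SDC1, the epithelial proteoglycan syndecan 1, fell by 1.58 ± 0.23 (0.00193) in MLM and 1.62 ± 0.33 (0.00782) in MRM. In H2087, 2 of 21 were higher and 3 lower in MLM, and 5 higher and 1 lower in MRM, or 23.8% and 28.6%, against 13.5% and 14.2% of all genes. CX3CL1, a membrane chemokine released by ADAM10 and ADAM17, rose by 2.35 ± 0.41 (0.00957) in MLM and 1.93 ± 0.32 (0.00741) in MRM, and TNFRSF1B, a TNF receptor, fell by 2.98 ± 0.59 (0.0152) in MLM and fell by 2.89 ± 0.62 (0.0189) in MRM. Of related metalloproteases and ADAMTS-like proteins, 4 of 9 were higher and 0 lower in HCC1954 LCC cells in each medium, or 44.4%, against 35.5% of all genes in MLM and 38.3% in MRM. Among them was TLL1, a procollagen C-proteinase, with 142 to 192 normalised reads in MLM, against 1.22 to 24.8 in parental libraries. In H2087 none of the 5 measured passed in limma in either medium, with 3 at an unadjusted p under 0.05 in MLM and 2 in MRM.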

How the data were processed

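RNA-seq of 30 libraries was used, of 31 RNA samples among 43 listed samples; 12 chromatin samples were not analysed here, and 1 H2087 parental library in MLM was not used here. Per the submitters' processing notes, the tools were DESeq2 1.8.1, R 3.1.2, HTSeq 0.6.1p1, SAMtools, HOMER 4.2 and Bowtie2 2.2.4, with the builds hg19 and GRCh37; their roles are not given in the sources used here, nor is the counting strand. The deposited tables hold the authors' normalised signal per gene, which came out as whole reads divided by 1 size factor per library for 100% of the values (tolerance 0.01), with both media of a line normalised together. Levels are therefore not corrected for gene length.

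Values were tested with limma 3.58.1 in R 4.3.3 on log2(value + 1), with a trended prior, two-sided, on every gene with a mean of at least 10 in either medium of the line, and Benjamini-Hochberg adjustment over all genes tested; 0.05 was the threshold. Fold changes are on this log2 scale, which understates changes of low genes. Genes with 3 or fewer reads in a group are given by a read ratio with an exact 95% interval, or as a bound from a floor of 3 reads over the group; both cover counting error only. edgeR 4.0.16 (quasi-likelihood) on the recovered reads was an alternative, and called 9 and 2 genes between LCC and parental cells in H2087 MLM and MRM, and 21 and 24 in HCC1954 MLM and MRM. LCC against parental and MLM against MRM were compared in each line, with the difference of the LCC effect between media and, in HCC1954, LCC2 against LCC1. Libraries of the same name in both media deviated together in LCC cells (correlations 0.405 to 0.745 in H2087 and 0.501 to 0.683 in HCC1954). In HCC1954 same-named libraries come from the same derivative, and the other library of the derivative correlated about as closely (0.488 to 0.68). Same-named libraries deviated together less in parental cells (0.0501 in H2087, 0.0123 to 0.11 in HCC1954), so the block is given for the LCC cells.

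The genes and lists were chosen with earlier results of these data known. Named with values were TIMPs that passed the limit, genes called in both media or both lines, up to 6 called genes per direction and comparison, genes whose mean reached 1000, and up to 3 called genes per direction of the medium and derivative tests and per further list. ADAMTS4 and MMP2 were among the earlier results and give no independent support. Gene spans of 11 of the genes overlap another gene in the tables. Promoter sequences are RefSeq (GRCh38.p14).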

Additional observations from a re-analysis of the deposited data

Results flagged for a closer look

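In 16 of 118 groups of 4 to 10 libraries (13.6%, for 13 genes), 1 library lay far from the others by Dixon's 95% limit. That limit is made for independent, normally spread values. These are unlogged counts, and the HCC1954 groups hold pairs of libraries of 1 derivative, so the share is descriptive only. In H2087 LCC cells LCC2 was highest in TIMP4, with 88.6 normalised reads in MLM and 110.1 in MRM, and in ADAMTS9, with 225 in MLM and 73.4 in MRM. TIMP4 reached the limit on the mean only through LCC2, so its place here was tied to that limit on the mean. LCC4 was highest in MMP15, with 820.1 in MLM and 2511 in MRM, and lowest in ADAMTS4 in MRM, at 1.95. LCC6 in MLM was highest in MMP1, at 572, and in ADAM15, at 15578, and lowest in ADAM10, at 2969. LCC3 in MLM was highest in ADAM23, at 35.9. In HCC1954 LCC cells in MRM, LCC1 library 2 was highest in ADAMTS6, at 541, and LCC1 library 1 was highest in MMP13, at 613, and lowest in ADAMTS1, at 23.6. In MLM, LCC2 library 1 was highest in ADAMTS15, at 532, and LCC1 library 1 was highest in MMP10, at 2.46.

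The LCC effect differed between MLM and MRM in H2087 for ADAMTS4 (7.34 on the log2 scale), MMP17 (0.94), TIMP2 (0.92), ADAM9 (-1.18), ADAM11 (-1.66) and ADAM23 (-8.48). In HCC1954 it differed for ADAM22 (-1.77) and MMP10 (-5.45). ADAMTS4 in H2087 reached the limit on the mean only through the parental libraries in MRM, and MMP10 in HCC1954 only through those in MLM. The sign of each of these differences was tied to that limit.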

How the results depend on the processing

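Counts of called genes are given as limma's against those of the alternatives. With the library name as a replicate block, MLM against MRM gave 18 in H2087 LCC cells (10 without the block) and 4 in HCC1954 LCC cells (0), and the medium dependence gave 16 in H2087 (6) and 2 in HCC1954 (2). Parental cells, whose names share only a number, gave 28 in H2087 (26) and 17 in HCC1954 (16). With the replicate number as a block, HCC1954 LCC against parental gave 15 in MLM (21) and 15 in MRM (23), and LCC2 against LCC1 gave 16 (17). Scaling to equal totals gave 6 in H2087 MRM (3) and 1 for the HCC1954 medium dependence (2). A fit of all 4 groups gave 6 in H2087 MRM, 12 between media in H2087 parental cells (26), 9 in HCC1954 parental cells (16) and 1 in HCC1954 LCC cells. Without the filter the medium dependence gave 10 in H2087 and 1 in HCC1954, and edgeR gave 0 in HCC1954. With LCC2 libraries only, HCC1954 MRM gave 35, beside 11666 of all 15698 genes tested. MMP13 in HCC1954 MLM turned from -1.22, which did not pass, to 0.80 with LCC1 libraries only. The cause of these changes was not tested.

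Leaving out 1 library at a time gave 2 to 12 calls in H2087 MLM, 1 to 7 in H2087 MRM, 16 to 24 in HCC1954 MLM and 19 to 26 in HCC1954 MRM. Between media it gave 9 to 11 in H2087 LCC, 23 to 30 in H2087 parental, 0 to 1 in HCC1954 LCC and 7 to 24 in HCC1954 parental cells. The medium dependence gave 3 to 8 in H2087 and 0 to 2 in HCC1954, and LCC2 against LCC1 gave 14 to 23. For named genes, leaving out a library ended 118 calls, made 28 and turned 0. Scaling to equal totals put the median log2 fold change of all genes at 0.117 in HCC1954 MLM (0.00384 as reported), 0.125 in HCC1954 MRM (-0.00163) and 0.146 in LCC2 against LCC1 (0.00416), and between media at 0.11 in H2087 LCC (0.0143) and 0.105 in H2087 parental cells (0.0392). It split the calls over all genes into 3391 higher and 2124 lower in HCC1954 MLM (2702 and 2876 by limma as reported), 3876 and 2164 in HCC1954 MRM (3015 and 2995), 826 and 1184 in H2087 MRM (1090 and 718) and 456 and 1574 in H2087 MLM (614 and 1096). For LCC2 against LCC1 the split was 5001 and 2461 (3471 and 3623). Between media it was 3233 and 1706 in H2087 LCC (2001 and 2121), 5357 and 3813 in H2087 parental (4805 and 4302), 655 and 1221 in HCC1954 LCC (993 and 877) and 3234 and 3930 in HCC1954 parental cells (3831 and 3192). Genes with few reads are limited by depth, which is lowest in H2087 MRM.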
